A study of Mus musculus with 6 samples.

Results

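Retinal ganglion cells (RGCs), the output neurons of the retina whose axons form the optic nerve, were compared between embryonic day 18 (E18) and adulthood by poly-A RNA sequencing with paired reads of 100 bases. All mice were wild type, of the strain given as C57/6NCrl. The E18 cells were untreated, were isolated by immunopanning on the surface protein Thy1, and were used at about 50000 cells without sorting. The adult control cells came from eyes that had received an AAV2 vector carrying mCherry with a scrambled shRNA mimic. They were immunopanned in the same way, and the mCherry-positive fraction was then sorted by flow cytometry, giving about 5000 RGCs from 10 retinas for each condition. Each group had 2 libraries, so 4 of the 6 libraries of the series entered the comparison. The other 2, adult RGCs given a miR-1247 vector, entered the filter on low values, the shared estimate of the spread and, where named, the set of 4 adult libraries. The comparison therefore joins age with vector, sorting and cell number, and these cannot be told apart. Whether a group's libraries came from separate animals is not stated in the labels, so p-values measure the spread between libraries, which may be technical.

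All genes of the deposited expression table with a mean of at least 1 FPKM (a read level scaled to transcript length and sequencing depth) were members of the comparison. Of 10361 gene names, 10183 were kept, and names that the table gives the same set of loci were joined, which left 9981 genes. Most mouse RGCs leave the cell cycle before birth and send axons to the brain while the rest of the retina is still forming. Their synaptic input from bipolar cells, fast spiking and responses to light come after birth, and the capacity to grow long axons is lost as they mature.

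Most of the transcriptome differed. With limma on log2(FPKM + 1) and Benjamini-Hochberg adjustment over 9981 genes, 4012 genes (40.2%) were higher at E18 and 2981 (29.9%) were lower at an adjusted p below 0.05, 70.1% in all. These shares are the background for every count below, and "higher" and "lower" refer to E18 against the adult control at that threshold. At least a 2-fold difference was reached by 2025 of the higher genes (20.3% of all tested) and 1437 of the lower (14.4%). At least 8-fold was reached by 156 and 177, and at least 32-fold by 22 and 20. The 22 include genes at 0 in both control libraries, such as mt-Cytb, mt-Nd6, Tardbp, Dctn3, Epb41 and Cntfr. Such values may be failed estimates, so 22 may be too high. The 20 include no gene at 0 in both E18 libraries. Both E18 libraries lay above all 4 adult libraries for 3864 of the 4012 higher genes, and below all 4 for 2785 of the 2981 lower genes. The calls come from the same values, so separation from the control libraries is largely fixed by them. The share over all genes was not computed, so these counts are a description. Correlations of log2 values across genes, which are not independent replicates, were 0.985 between the E18 libraries, 0.980 between the control libraries, and 0.692 to 0.694 across ages. The median gene differed by 0.16 on the log2 scale. Rescaling the libraries brought this shift to between 0.02 and 0.09, with 3407 to 3618 genes higher and 3105 to 3423 lower, so the excess of higher over lower genes depends on the scale. Mitochondrially encoded transcripts took 4.2% and 4.3% of listed FPKM at E18 and 10.4% and 4.4% in the control. Neither control library had a value above 0 for mt-Nd6 or mt-Cytb, which may be failed estimates, so the control shares may be too low. Without both genes the shares were 3.1% and 3.1% at E18 and 10.4% and 4.4% in the control.

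The labelled cell type was checked against 14 RGC markers, all of which were measured in every library at both ages. Rbpms, an RNA-binding protein used to count RGCs, was listed at 295 and 289.9 FPKM at E18 and 102 and 111 FPKM in the control. Pou4f2, the POU-domain factor that specifies RGCs, was listed at 70.2 and 70.5 FPKM at E18 and 33.1 and 32.4 FPKM in the control. Sncg, gamma-synuclein, was listed at 1436 and 1451 FPKM at E18 and 812 and 761 FPKM in the control. Of the 14 markers, 11 were higher at E18, of which the neurofilament gene Nefl lost its call under each rescaling of the libraries. The other 3 were lower: Thy1, the antigen used for panning, with 358 and 346 FPKM at E18 and 863 and 847 FPKM in the control, Slc17a6, the vesicular glutamate transporter of RGCs, with 54.7 and 50.4 FPKM at E18 and 124 and 119 FPKM in the control, and Chrnb3, a nicotinic receptor subunit, with 94.1 and 88.2 FPKM at E18 and 127 and 118 FPKM in the control. In such bulk samples fewer cells of a type and less RNA per cell cannot be told apart.

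Few markers of other cell types were among the genes tested. The filter took the mean over 6 libraries, 4 of them adult, so a gene present only at E18 needed a higher level there to pass. A marker outside the tested genes is therefore not shown to be absent from the cells. Of 25 vascular, erythroid and pigment epithelium markers none was among the genes tested, and of 15 microglia markers 1 was. From 23 rod and cone markers Rom1 and Reep6 were tested, and their summed level was 6.41 and 5.29 FPKM at E18 and 46.1 and 44.6 FPKM in the control. Of 21 progenitor markers 3 were tested and all 3 were higher at E18, namely Dapl1, Hes6 and Pax6, the last of which RGCs also express, and their summed level was 278 and 289 FPKM at E18 and 186 and 188 FPKM in the control. The division markers Mki67, Top2a and Cdk1 were not among the genes tested. The 4 tested of 14 bipolar cell markers had 1 higher (Isl1, which RGCs share) and 2 lower, and summed to 176 and 175 FPKM at E18 and 39.97 and 48.4 FPKM in the control. Isl1 was most of the E18 sum, and the other 3 markers summed to 12.66 and 11.32 FPKM at E18 and 25.15 and 30.04 FPKM in the control. The 4 tested of 22 oligodendrocyte, fibroblast and lens markers summed to 38.4 and 36.2 FPKM at E18 and 44 and 44 FPKM in the control.

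Amacrine and glial markers were more often represented. Of 23 amacrine and horizontal cell markers 10 were tested, with 2 higher and 7 lower at E18, and they summed to 956 and 984 FPKM at E18 and 1761 and 1790.0 FPKM in the control. Gad2, a glutamate decarboxylase of inhibitory neurons, was listed at 0.682 and 1.03 FPKM at E18 and 81.2 and 82.5 FPKM in the control, and Meis2 at 19.4 and 22.3 FPKM at E18 and 174 and 163 FPKM in the control. Of 22 Müller glia and astrocyte markers 8 were tested, with 2 higher and 5 lower, and they summed to 247 and 242 FPKM at E18 and 1616 and 1266 FPKM in the control. Clu, clusterin, was listed at 15.2 and 14.46 FPKM at E18 and 165 and 166 FPKM in the control, and Apoe at 4.08 and 2.46 FPKM at E18 and 42.6 and 45.1 FPKM in the control, whereas Vim, which young neurons also express, was listed at 44.5 and 41 FPKM at E18 and 1.6 and 0.635 FPKM in the control. Aldoc, Dkk3 and Glul held most of the control sum, and without Aldoc the other 7 glial markers summed to 237.7 and 233.4 FPKM at E18 and 1105 and 735.5 FPKM in the control, 3.91-fold higher in the control. The glial markers Gfap, Aqp4 and Rlbp1 and the amacrine markers Gad1, Slc32a1 and Chat were not among the genes tested. The summed level was 1.83-fold higher in the adult control for the amacrine and horizontal set and 5.89-fold higher for the glial set. Calb2 held most of the amacrine and horizontal sum at E18, with 618 and 634 FPKM there and 901 and 900 FPKM in the control. Its difference (-0.52 ± 0.033) was much smaller than those of Gad2 and Meis2. The sum without Calb2 was not computed, so the 1.83-fold may understate the difference of the other members. The part of either set in the results below was not tested.

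**Figure D1:**
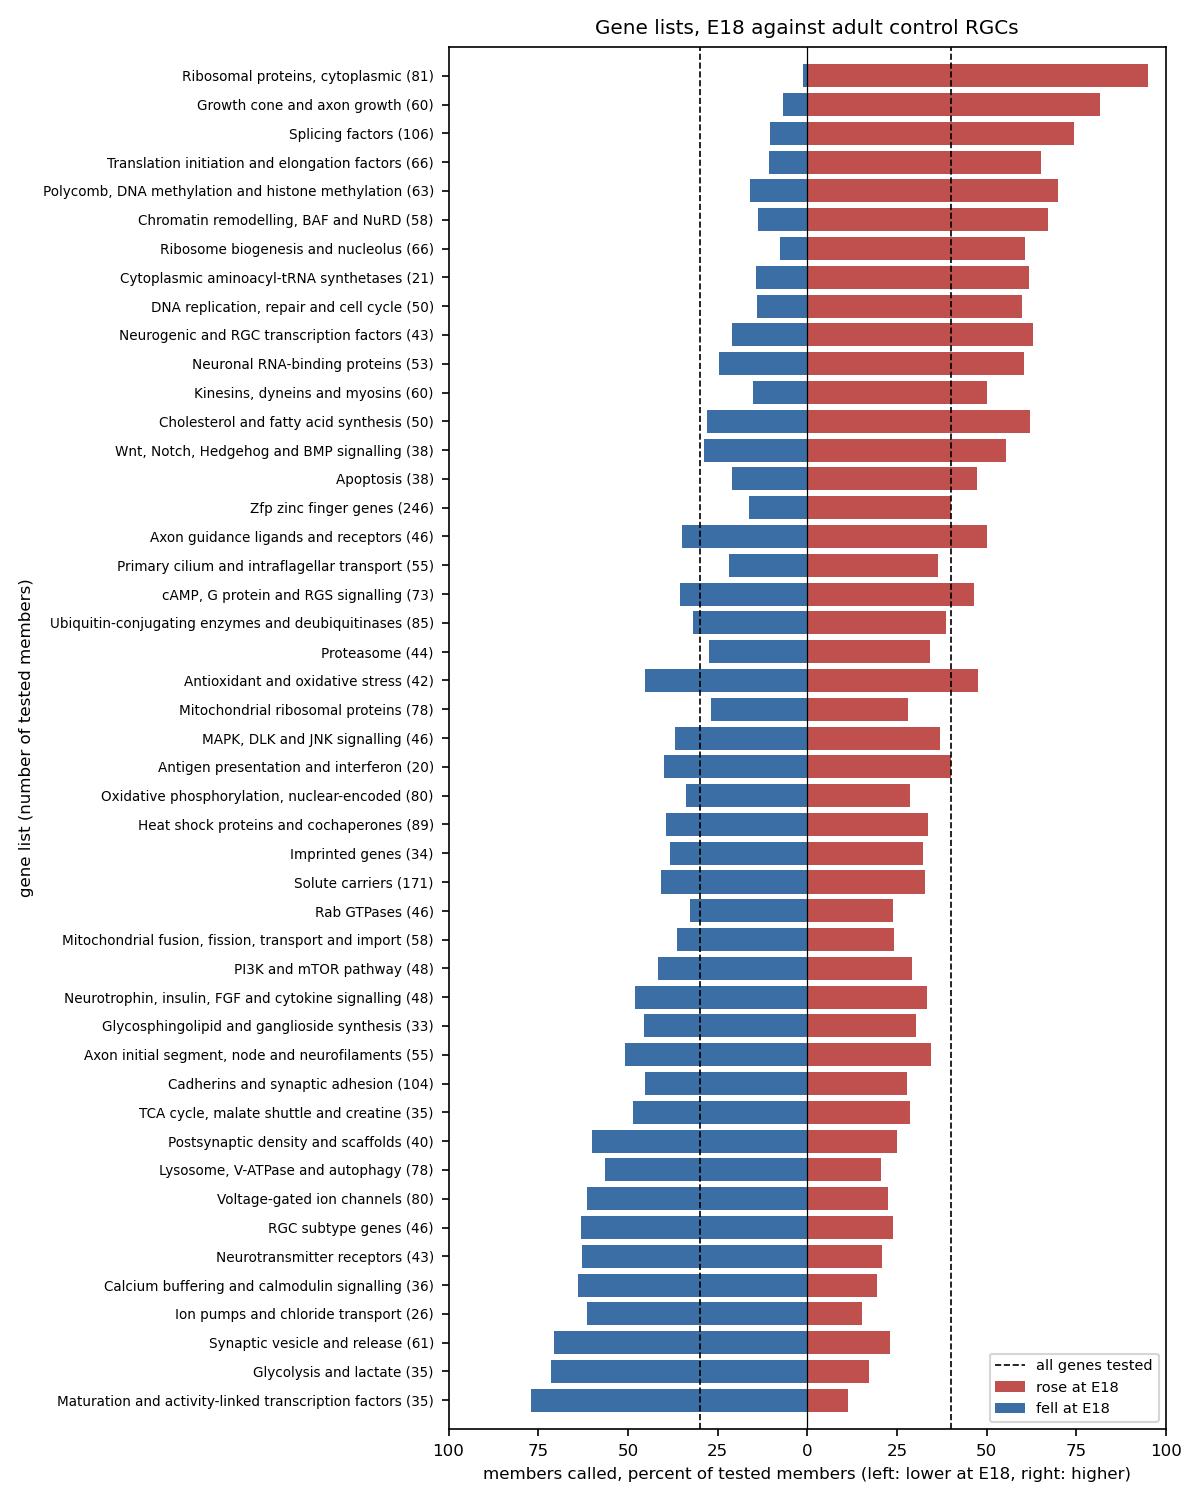
Share of tested members of each gene list called higher (right, red) or lower (left, blue) at E18 against the adult control, with the number of tested members in brackets. Dashed lines mark the shares over all genes tested, 40.2% and 29.9%. Ribosomal proteins, growth cone genes and splicing factors lie farthest to the right, and maturation-linked transcription factors, glycolysis and synaptic vesicle genes farthest to the left.

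The most abundant transcripts differed between the ages. Of the 100 highest-listed genes outside the mitochondrial genome at each age, 40 were shared. The 100 highest at E18 took 20.03% and 20.22% of FPKM outside mitochondrially encoded genes there and 11.45% and 10.77% in the control, and 83 of them were higher at E18 and 11 lower. The 100 highest of the control took 18.71% and 18.11% there and 12.85% and 12.94% at E18, and 71 of them were lower at E18 and 23 higher. Each set was picked by its level at 1 age, which partly fixes the direction of these counts. Alpha-tubulin (Tuba1a and Tuba1b, which share a locus in the table) ranked 1 at E18 and 8 in the adult, the elongation factor Eef1a1 2 and 23, and the beta-tubulin Tubb2b 4 and 2227. In the opposite direction, the vesicle fusion protein Snap25 ranked 42 at E18 and 1 in the adult, aldolase Aldoa 119 and 2, the mitochondrial protein Mgarp 6187 and 4, and the sodium pump subunit Atp1b1 1436 and 5.

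Nnat (neuronatin, an imprinted gene; chr2:157398282-157408281 on mm39) was listed at 1236 and 1244 FPKM at E18 and 17.9 and 20.1 FPKM in the control, a 65.3-fold difference (5.96 ± 0.073 on the log2 scale, ± SE; adjusted p = 4.35e-08). Dcx (doublecortin, a microtubule-binding protein of migrating and growing neurons; chrX:142638638-142716307) was listed at 159 and 159 FPKM at E18 and 2.04 and 1.93 FPKM in the control, 80.1-fold higher (5.74 ± 0.12, adjusted p = 2.15e-07). Tubb2b (chr13:34310731-34314337) was listed at 1819 and 1812 FPKM at E18 and 33.6 and 35.7 FPKM in the control, 52.4-fold higher (5.67 ± 0.083). In all of these, both E18 libraries stood above both control libraries, which their selection by fold change largely fixes. Gpc2, a heparan sulfate proteoglycan of growing axons, was 78.4-fold higher, and Cd24a, a surface glycoprotein of immature neurons, 53.7-fold. St8sia2, which puts polysialic acid on the adhesion molecule NCAM, was listed at 84 and 88.4 FPKM at E18 and 1.07 and 1.75 FPKM in the control. Draxin, a secreted guidance protein, had 33.9 and 37.8 FPKM at E18 and 0.201 and 0.101 FPKM in the control. The 15 genes with the highest fold changes also held the ribosomal proteins Rpl34 and Rpl29, Gas5 (a host gene of small nucleolar RNAs), the G protein subunit Gng5, Kctd12, Tes and Fblim1 (focal adhesion proteins) and Traf4. Rpl34, with 271 and 268 FPKM at E18 and 7.54 and 1.16 FPKM in the control, and Rpl29, with 212 and 184 FPKM at E18 and 2.57 and 2.57 FPKM in the control, have many processed pseudogenes, so reads may be split between copies.

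At the low end, Rd3l (chr12:111937993-112035288) was listed at 0.469 and 0.713 FPKM at E18 and 198 and 193 FPKM in the control, 331-fold lower at E18 (-6.95 ± 0.10, adjusted p = 5.36e-08). Mgarp, which tethers mitochondria to transport adaptors (chr3:51295833-51304159), was listed at 8.77 and 12.2 FPKM at E18 and 1144 and 1162 FPKM in the control, 110.0-fold lower (-6.67 ± 0.13, adjusted p = 1.66e-07). Rasgrf1, a calcium-activated exchange factor for Ras, was listed at 0.264 and 0.264 FPKM at E18 and 120.4 and 113 FPKM in the control, with both E18 libraries near 0. Faim2, an inhibitor of Fas-induced cell death, was 79.99-fold lower with 2.49 and 2.01 FPKM at E18 and 181 and 179 FPKM in the control. Sparcl1 (a secreted matricellular protein), Aldoc (brain aldolase, also one of the glial markers) and Lynx1 (a brake on nicotinic receptors) were 61.3-fold, 56.6-fold and 55.2-fold lower. Fgf1, a growth factor without a secretion signal, was listed at 1.37 and 0.102 FPKM at E18 and 114 and 111 FPKM in the control. The remaining 7 of the 15 lowest were Mmp9 (a matrix metalloproteinase), the potassium channel subunit Kcnab3, Gad2, Pcp4l1, the transcription factors Bhlhe22 and Klf9, and the metallothionein Mt1.

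**Figure D2:**
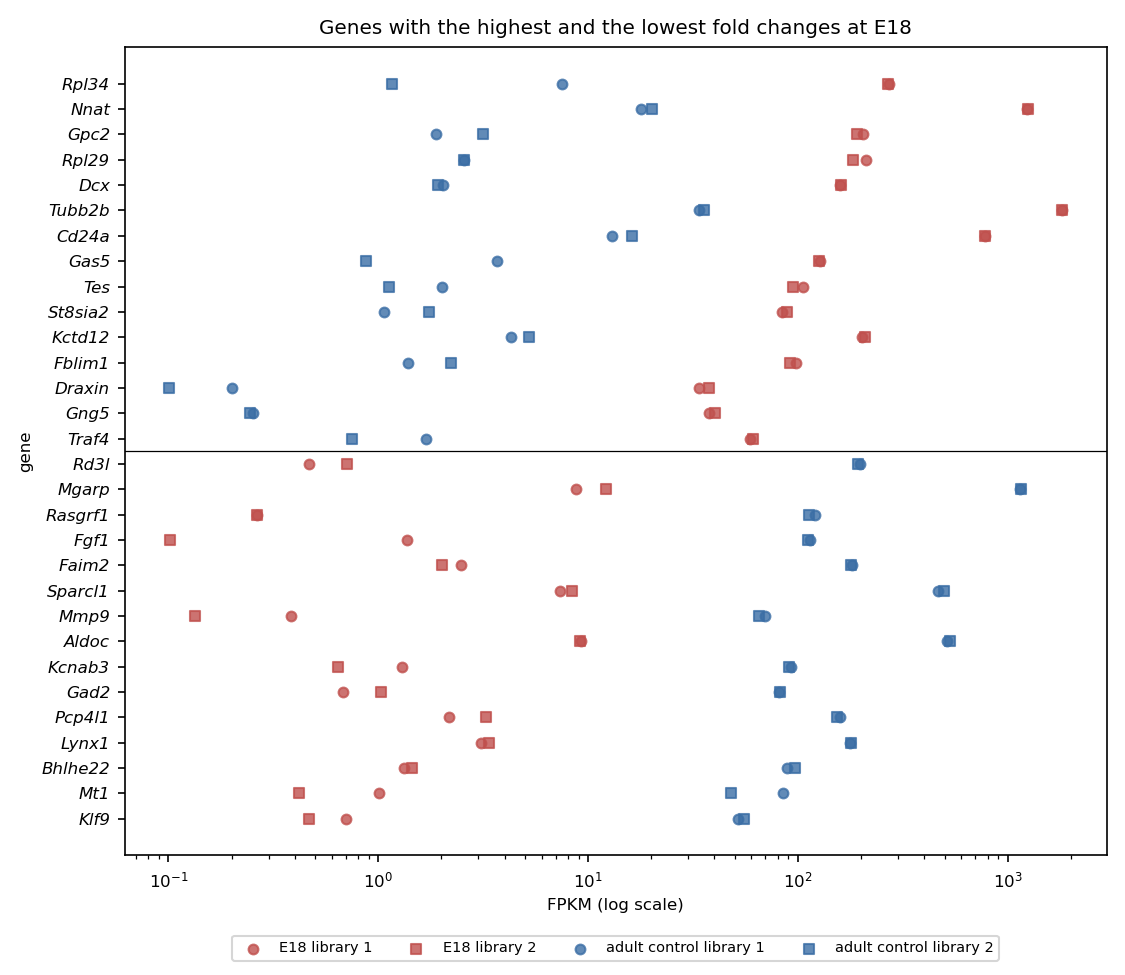
FPKM (horizontal log axis) of the 15 called genes with the highest and the 15 with the lowest log2 fold changes at E18, 1 point for each library. For all 30 genes the E18 points (red) lie apart from the control points (blue), which their selection by fold change largely fixes. The E18 libraries of Rpl34 lie at 271 and 268 FPKM against 7.54 and 1.16 FPKM in the control.

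Transcription factors split by stage. Of neurogenic and RGC factors, 27 of 43 tested members were higher at E18 and 9 were lower, with a median log2 difference of 1.02 against 0.16 over all genes. Sox11, an SRY-box factor of postmitotic neurons that drives axon growth programs, was listed at 45.2 and 46.6 FPKM at E18 and 1.52 and 1.4 FPKM in the control, 31.5-fold higher (4.25 ± 0.14). Sox4, its close relative, had 191 and 195 FPKM at E18 and 13.4 and 16.2 FPKM in the control. Isl1, a LIM factor that works beside Pou4f2 in RGC specification, was listed at 163 and 164 FPKM at E18 and 14.8 and 18.4 FPKM in the control (3.23 ± 0.14), and its relative Isl2 was higher by 2.95 ± 0.12. Gfi1, a repressor, was higher by 3.36 ± 0.20, Myt1 by 2.59 ± 0.12, and Klf7, which favours axon growth, by 2.54 ± 0.12. Pou4f1 (1.80 ± 0.055), Pou4f2 (1.08 ± 0.076) and Ebf1 (1.47 ± 0.081) were higher by smaller amounts. Pax6 and Six3, the most abundant of the list over both ages, differed little: Pax6 had 226 and 239 FPKM at E18 and 167 and 169 FPKM in the control and Six3 165 and 169 FPKM at E18 and 191 and 186 FPKM in the control. Eomes, which marks light-sensing RGC types, was lower at E18 (-2.82 ± 0.17), as were Neurod2 (-2.18 ± 0.25) and Nhlh2 (-1.78 ± 0.11).

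The factors linked to maturation, hormones, activity and the clock moved the other way: 4 of 35 tested members were higher at E18 and 27 were lower, with a median of -1.20. Klf9, a thyroid and glucocorticoid hormone target that restrains axon growth, was listed at 0.703 and 0.468 FPKM at E18 and 51.6 and 55 FPKM in the control (-5.10 ± 0.12). Hlf, a clock-output factor, was listed at 2.19 and 3.2 FPKM at E18 and 109 and 109.5 FPKM in the control, and Dbp, of the same PAR bZIP family, at 5.98 and 5.62 FPKM at E18 and 151 and 154 FPKM in the control. Tef, another member of that family, was lower (-3.13 ± 0.072). Nr1d2 (-3.18 ± 0.088), Per3 (-2.42 ± 0.17) and Clock (-2.003 ± 0.10) of the clock were also lower. Thrb, a thyroid hormone receptor, was lower (-2.35 ± 0.18), while Thra, its relative, was higher with 396 and 383 FPKM at E18 and 178 and 197 FPKM in the control. Arntl, the partner of Clock, was also higher (1.12 ± 0.14), so the clock genes did not all lie on the same side. Esrrg (-2.65 ± 0.11) and Ppargc1a (-2.18 ± 0.15), regulators of mitochondrial genes, were lower. The time of day of collection is not given in the sources used here, and its part in the clock genes was not tested.

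**Figure D3:**
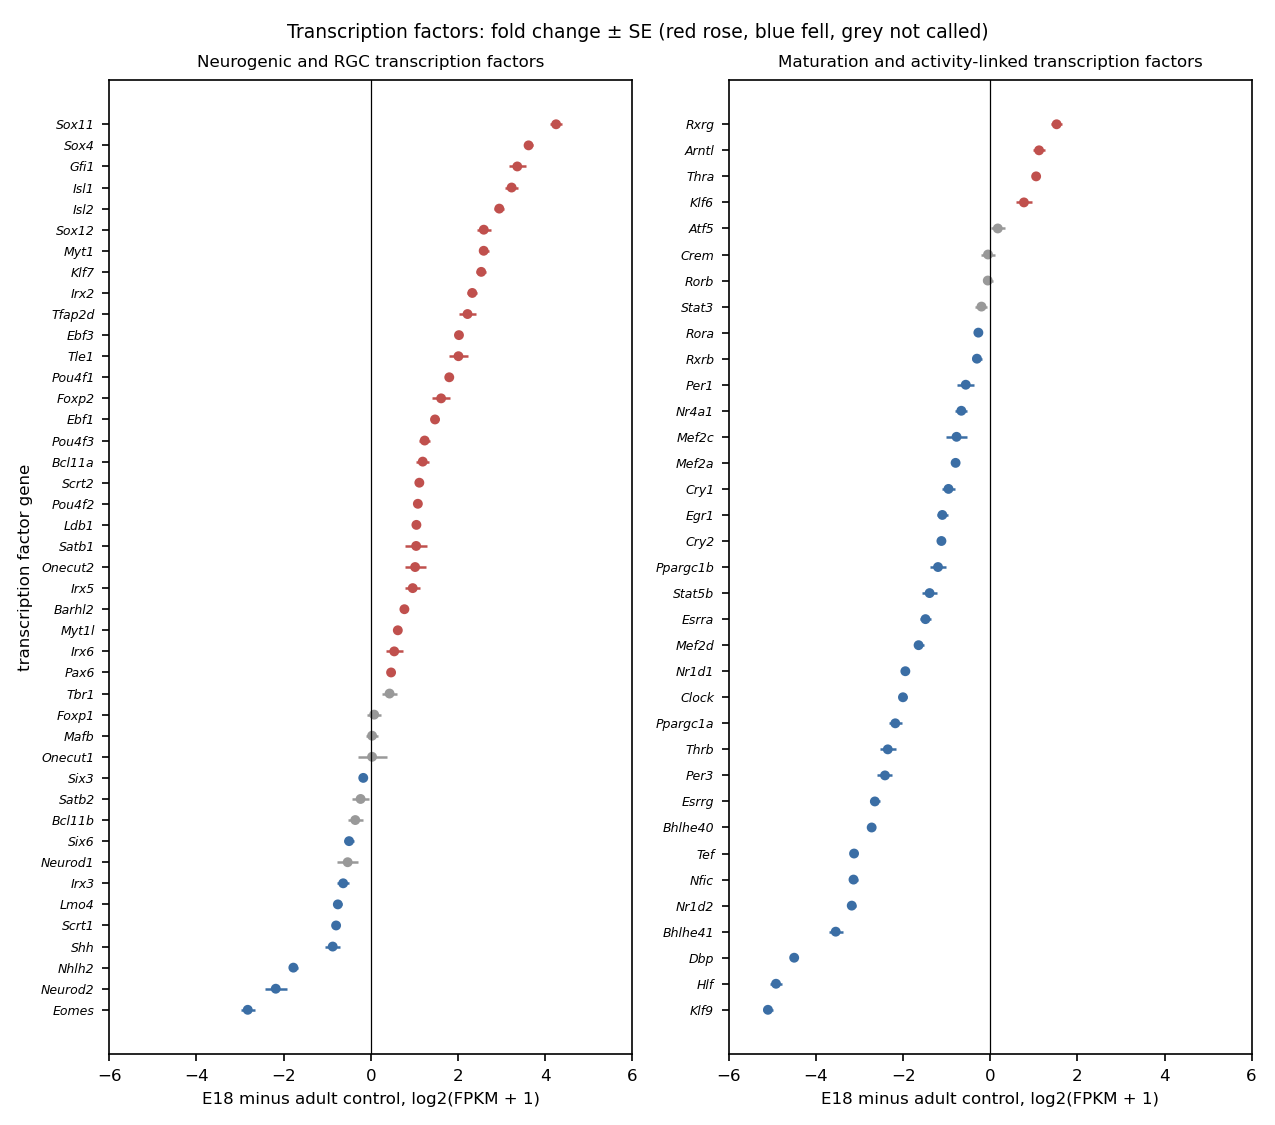
Difference between E18 and adult control on the log2(FPKM + 1) scale, with bars for the SE, for neurogenic and RGC transcription factors (left) and maturation-linked ones (right). Red points were called higher, blue lower and grey neither. On the left 27 of 43 lie to the right as red points, and on the right 27 of 35 lie to the left as blue points.

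Of the lists other than cell type markers, growth cone and axon growth genes had the highest share of higher members after ribosomal proteins: 49 of 60 tested members were higher at E18 and 4 were lower, with a median of 1.33. Together the list held 8.95% and 8.84% of FPKM outside mitochondrially encoded genes at E18 and 2.9% and 2.88% in the control. Tuba1a/Tuba1b was listed at 4955 and 4768 FPKM at E18 and 984 and 953 FPKM in the control, and Stmn1, a tubulin-sequestering protein, at 2006 and 2034 FPKM at E18 and 506 and 506 FPKM in the control (1.995 ± 0.030). Stmn2, a relative enriched in growth cones, was listed at 967 and 986 FPKM at E18 and 215 and 225 FPKM in the control (2.14 ± 0.041), and Gap43, the growth-associated protein of axon tips, at 1317 and 1335 FPKM at E18 and 141 and 155 FPKM in the control. The 4 lower members were Plppr5 (-2.41 ± 0.15), Nrn1 (neuritin, -1.37 ± 0.051), Cntn1 (contactin, -1.17 ± 0.073) and Dpysl2 (a collapsin response mediator, -0.88 ± 0.071). Dcx, Tubb2b and Cd24a, described above, belong to this list.

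Guidance genes divided. Among guidance ligands and receptors, 23 of 46 tested members were higher at E18 and 16 were lower, and the median of 0.22 was near that of all genes. The plexins Plxnb1 and Plxna3, receptors of semaphorins, were higher: Plxnb1 had 26.1 and 25.6 FPKM at E18 and 0.294 and 0.417 FPKM in the control and Plxna3 52.6 and 49.7 FPKM at E18 and 3.82 and 3.49 FPKM in the control. Robo2, the Slit receptor that guides RGC axons in the retina, was listed at 83.6 and 82.8 FPKM at E18 and 39.3 and 37.9 FPKM in the control (1.09 ± 0.066). The netrin receptors Unc5a (-3.31 ± 0.27) and Unc5d (-3.12 ± 0.16) and the ligands Sema6b (-1.91 ± 0.11) and Slit2 (-1.79 ± 0.14) were lower. In the Wnt, Notch, Hedgehog and BMP pathways 21 of 38 tested members were higher at E18 and 11 were lower, with a median of 0.37. Vangl2, a planar polarity protein (3.09 ± 0.26), and Tgfbr1, a TGF-beta receptor (2.94 ± 0.16), were higher. The secreted protein Dkk3, also one of the glial markers, was lower with 29.1 and 29.7 FPKM at E18 and 391 and 366 FPKM in the control, as was the BMP and TGF-beta brake Smad7 (-1.87 ± 0.16).

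Genes of protein synthesis were mostly higher at E18. For cytoplasmic ribosomal proteins, 77 of 81 tested members were higher at E18 and 1 was lower, with a median of 1.85, and the list held 5.92% and 6.06% of FPKM outside mitochondrially encoded genes at E18 and 2.05% and 2.11% in the control. The single lower member was Rps2, with 111 and 105 FPKM at E18 and 133 and 139 FPKM in the control, a call that was lost without the second E18 library (-0.30, adjusted p = 0.0582). The most abundant member over both ages, Rplp1 of the ribosomal stalk, differed less, with 562 and 635 FPKM at E18 and 500.3 and 442 FPKM in the control (0.35 ± 0.076), and it lost its call without the second E18 library (0.26, adjusted p = 0.0504) and under median ratio scaling (0.19, adjusted p = 0.0614). Ribosomal protein transcripts commonly start with a 5′ terminal oligopyrimidine tract, a C at the start followed by pyrimidines, through which their translation is set by growth signals. In RefSeq promoter records (GRCm38.p6, matched by symbol for 8194 genes), a C at the annotated start followed by 4 pyrimidines on the gene's strand was present in 14 of 60 ribosomal protein genes (23.3%), against 262 of all 8194 (3.20%). Genes at least 2-fold higher at E18 held it in 3.51% and those at least 2-fold lower in 3.21%, both near the share of all genes. The starts of 5 ribosomal protein genes that hold it are shown from 15 bases before to 15 after the start, with the pyrimidine tract in capitals. These 5 were picked for high log2 fold changes at E18. They are shown because this list had the highest share of higher members among the lists other than cell type markers. Positions come from an exact match to GRCm39.
Rps15a (chr7:117715356-117715385, minus strand): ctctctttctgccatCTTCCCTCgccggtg
Rps27 (chr3:90120941-90120970, minus strand): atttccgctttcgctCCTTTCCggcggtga
Rps18 (chr17:34174625-34174654, minus strand): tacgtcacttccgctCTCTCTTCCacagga
Rpl38 (chr11:114559391-114559420, plus strand): agcggaagcctcgttCTTTCCCCgttctct
Rpl15 (chr14:4198695-4198724, plus strand): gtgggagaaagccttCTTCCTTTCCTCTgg

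Of these 5 genes, Rps15a was listed at 280.4 and 302 FPKM at E18 and 17 and 17.3 FPKM in the control (4.01 ± 0.15), Rps27 at 350.3 and 400.2 FPKM at E18 and 38.1 and 50.9 FPKM in the control (3.06 ± 0.14), Rps18 at 434 and 368 FPKM at E18 and 74 and 47.8 FPKM in the control (2.73 ± 0.19), Rpl38 at 208 and 183 FPKM at E18 and 25.5 and 42.9 FPKM in the control (2.52 ± 0.28) and Rpl15 at 174 and 175 FPKM at E18 and 41.5 and 44.7 FPKM in the control (1.99 ± 0.081). All 5 had both E18 libraries above both control libraries, which their selection by fold change largely fixes. The match is a description of the letters and not a test of regulation. Translation factors followed the ribosomal proteins: 43 of 66 tested members were higher at E18 and 7 were lower, with a median of 0.65. Eef1b2, a nucleotide exchange factor of elongation, was higher by 2.67 ± 0.093, and Eif4g2, an initiation scaffold, by 2.13 ± 0.057. The clear exception was Eef1a2, the elongation factor of mature neurons and muscle, with 53.4 and 49.3 FPKM at E18 and 484 and 474 FPKM in the control (-3.20 ± 0.054). Cytoplasmic aminoacyl-tRNA synthetases had 13 of 21 members higher and 3 lower (median 0.51), and ribosome biogenesis and nucleolar genes 40 of 66 higher and 5 lower (median 0.56). In the latter list 26 were higher without the second E18 library, and 3 were lower without the first. Npm1, nucleophosmin of the nucleolus, was listed at 186 and 189 FPKM at E18 and 55.9 and 56.5 FPKM in the control. Mitochondrial ribosomal proteins differed from this pattern, with 22 of 78 higher and 21 lower, and their median of 0.060 changed sign with the scaling. Without the first E18 library 14 were higher and 13 lower, and 13 were also lower without the second E18 or the second control library.

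RNA processing was shifted in the same direction. For splicing factors, 79 of 106 tested members were higher at E18 and 11 were lower (7 without the second E18 library), with a median of 0.89. Srsf6, a serine- and arginine-rich splicing factor, was listed at 102 and 91.7 FPKM at E18 and 16.3 and 15.8 FPKM in the control, and Hnrnpa2b1, an RNA-binding protein that also takes part in RNA transport, at 527 and 521 FPKM at E18 and 140.2 and 131 FPKM in the control. The lower members included Hnrnph2 (-1.17 ± 0.066), while its close relative Hnrnph1 was higher (2.11 ± 0.069). Of neuronal RNA-binding proteins, 32 of 53 tested members were higher at E18 and 13 were lower, with a median of 0.65. Celf3 was higher (2.17 ± 0.10) and Celf4, a translational regulator in mature neurons, lower (-1.22 ± 0.046). Igf2bp3, an oncofetal mRNA-binding protein, was higher with 14.49 and 16.1 FPKM at E18 and 1.98 and 4.2 FPKM in the control, and Igf2bp2 was listed at 8.03 and 10.9 FPKM at E18 and 0 and 0 FPKM in the control. The muscleblind proteins Mbnl1 (-1.36 ± 0.14) and Mbnl2 (-2.60 ± 0.13), which set mature splicing patterns, were both lower, as were Cpeb1 (-1.52 ± 0.24) and Cpeb3 (-2.15 ± 0.10), which regulate translation at synapses. Tardbp was listed at 88.5 and 103 FPKM at E18 and 0 and 0 FPKM in the control, but every cell uses this gene, so the value of 0 may be a failed estimate.

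Chromatin regulators of 2 lists were mostly higher. In the remodelling complexes BAF and NuRD 39 of 58 tested members were higher at E18 and 8 were lower, with a median of 0.67, and among Polycomb, DNA methylation and histone methylation genes 44 of 63 tested members were higher at E18 and 10 were lower, with a median of 0.72. Ezh2, the methyltransferase of Polycomb repressive complex 2 in dividing and young cells, was listed at 15.4 and 16.5 FPKM at E18 and 0.784 and 0.406 FPKM in the control (3.42 ± 0.23). Ezh1, its counterpart in resting cells, was lower with 13.4 and 13.6 FPKM at E18 and 27 and 30.2 FPKM in the control. Prmt1, the main arginine methyltransferase, had 204 and 193 FPKM at E18 and 34.7 and 33.1 FPKM in the control (2.52 ± 0.17), and Hmgb3, a high-mobility-group protein, had 103 and 116 FPKM at E18 and 6.85 and 5.38 FPKM in the control (3.96 ± 0.18). The BAF subunit Bcl7c was higher (2.97 ± 0.25) and Bcl7b lower (-2.59 ± 0.19). Smarca2, the BAF ATPase that prevails in differentiated cells, was lower (-1.73 ± 0.11). Of 246 Zfp zinc finger genes 99 were higher (40.2%, the share over all genes) and 40 lower, with a median of 0.29. The lower ones numbered 24 without the first E18 library and 26 without the second control library. Zfp57, which protects imprinted methylation in the embryo, had 107 and 117 FPKM at E18 and 3.23 and 2.9 FPKM in the control (4.80 ± 0.12), and Zfp365 was the lowest member (-3.93 ± 0.11).

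Genes named for DNA replication, repair and the cell cycle were higher in 30 of 50 and lower in 7 cases (median 0.65). Mcm6, a replicative helicase subunit, was listed at 7.54 and 11.6 FPKM at E18 and 0.185 and 0.638 FPKM in the control, and Rfc4, a clamp loader, at 9.98 and 12.8 FPKM at E18 and 0.984 and 0.65 FPKM in the control. The highest fold change of the list belonged to Cdkn1a, which stops the cell cycle, with 34.9 and 33.1 FPKM at E18 and 1.73 and 2.62 FPKM in the control (3.48 ± 0.21). The most abundant members, Stmn1 and Tubb5, are a tubulin regulator and a tubulin that neurons also use outside division.

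Presynaptic genes were mostly lower at E18. For synaptic vesicle and release genes, 14 of 61 tested members were higher at E18 and 43 were lower, with a median of -1.07, and the list held 1.69% and 1.66% of FPKM outside mitochondrially encoded genes at E18 and 4.15% and 4.2% in the control. Snap25, a SNARE protein of vesicle fusion, was listed at 582 and 557 FPKM at E18 and 3014 and 3030.0 FPKM in the control (-2.41 ± 0.032). Synpr, synaptoporin, was listed at 6.25 and 6.2 FPKM at E18 and 237 and 241 FPKM in the control (-5.05 ± 0.056), and Sncb, beta-synuclein, at 53.8 and 53.1 FPKM at E18 and 868 and 891 FPKM in the control (-4.02 ± 0.037). Vamp1, a vesicle SNARE, was lower (-3.57 ± 0.17), and so was Nrxn3, a presynaptic neurexin (-3.18 ± 0.10). The 14 higher members included Stx1a (1.76 ± 0.10), Erc2 of the active zone (1.87 ± 0.12) and Rab3b (2.35 ± 0.22).

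**Figure D4:**
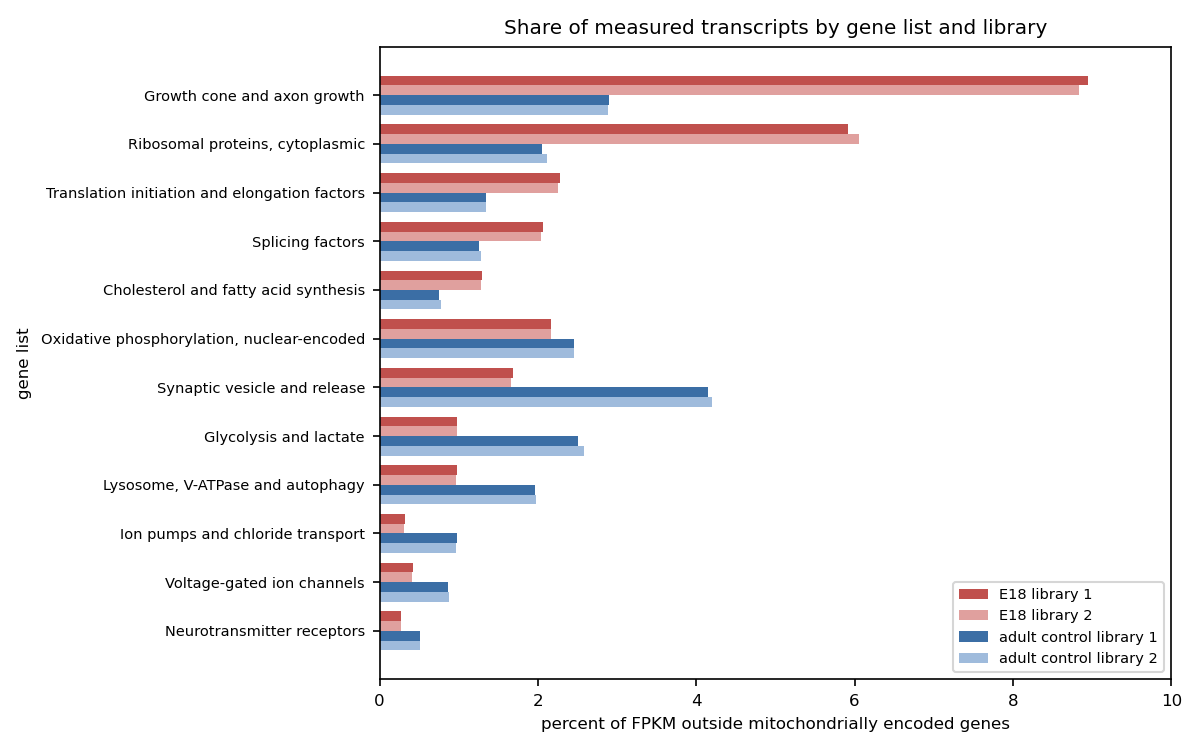
Percent of FPKM outside mitochondrially encoded genes held by 12 gene lists (horizontal bars from 0), 1 bar for each library, red for E18 and blue for adult control. Growth cone genes take 8.95% and 8.84% at E18 against 2.90% and 2.88%, and synaptic vesicle genes 1.69% and 1.66% against 4.15% and 4.20%.

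On the receiving side, postsynaptic density genes were lower in 24 of 40 cases and higher in 10 (median -0.67), and neurotransmitter receptors were lower in 27 of 43 and higher in 9 (median -0.69). Dlgap1, a scaffold protein, was listed at 3.59 and 4.53 FPKM at E18 and 84.1 and 84 FPKM in the control (-4.08 ± 0.11), and Homer3, another scaffold, stood in the other direction with 21.7 and 21.8 FPKM at E18 and 1.82 and 2.11 FPKM in the control. Nptx1 (-2.47 ± 0.071) and Nptx2 (-2.69 ± 0.067), secreted pentraxins that gather AMPA receptors, were lower. Grin1, the obligatory NMDA receptor subunit, was lower (-1.51 ± 0.076), and Grin2a, its mature partner, was listed at 0.397 and 0.724 FPKM at E18 and 6.27 and 6.95 FPKM in the control. Grin2b, the juvenile partner, did not pass the threshold, with 2.93 and 2.94 FPKM at E18 and 4.26 and 3.98 FPKM in the control. Glrb, which anchors glycine receptors, was listed at 5.36 and 7.73 FPKM at E18 and 105 and 105 FPKM in the control (-3.83 ± 0.14). Adora1, an adenosine receptor, was lower (-3.99 ± 0.091). Higher at E18 were Chrna3 (1.10 ± 0.11) and Chrna4 (0.92 ± 0.094), nicotinic subunits, whereas Chrna6, the most abundant of the list in the control, was lower with 81.1 and 82.6 FPKM at E18 and 232 and 228 FPKM in the control.

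Ion channels and pumps were also more often lower. For voltage-gated and related channels, 18 of 80 tested members were higher at E18 and 49 were lower, with a median of -0.80. The highest member, Kcnh4, had 20.6 and 19.7 FPKM at E18 and 0 and 0 FPKM in the control, which may be a failed estimate. Kcnab3 (-5.58 ± 0.16) and Kcnab1 (-4.57 ± 0.15), auxiliary subunits of Kv1 channels, and Kcnj9, an inward rectifier opened by G proteins (-4.80 ± 0.10), were lower. Scn9a (3.06 ± 0.19), Clcn2 (3.27 ± 0.28) and Kcnk10 (2.53 ± 0.18) were higher. Of ion pumps and chloride transporters, 16 of 26 were lower and 4 higher (median -1.03), the latter 2 without the first E18 library or with quantile normalization. Atp1b1, the beta subunit of the sodium pump, was listed at 51 and 55.2 FPKM at E18 and 1163 and 1117 FPKM in the control (-4.40 ± 0.051). Slc12a5 (KCC2), which extrudes chloride and makes GABA inhibitory in mature neurons, was listed at 24.6 and 20.5 FPKM at E18 and 264 and 263 FPKM in the control (-3.49 ± 0.084). The sodium and calcium exchanger Slc24a2 was lower (-3.43 ± 0.14), and the pump modulator Fxyd6 was higher (2.37 ± 0.12).

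Calcium-binding and calmodulin genes were lower in 23 of 36 cases and higher in 7 (median -0.88). Vsnl1, visinin-like protein 1, was listed at 46.3 and 48 FPKM at E18 and 513 and 501 FPKM in the control (-3.40 ± 0.050), and Itpr1, the calcium channel of the endoplasmic reticulum, at 0.679 and 0.479 FPKM at E18 and 15.7 and 15.9 FPKM in the control (-3.41 ± 0.14). S100a10 was higher with 329 and 319 FPKM at E18 and 70.4 and 96.4 FPKM in the control. Signalling through cAMP, G proteins and RGS proteins was mixed, with 34 of 73 members higher and 26 lower. Gng5, a G protein gamma subunit, was among the 15 highest fold changes with 37.6 and 40.1 FPKM at E18 and 0.252 and 0.244 FPKM in the control, and Rgs8, which shortens G protein signals (-3.93 ± 0.079), and Rgs7bp, a membrane anchor of such proteins (-3.55 ± 0.10), were lower.

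Related genes stood on opposite sides in some pairs and moved together in others. In 50 pairs of paralogs or functional counterparts, each with a member taken to be early and a member taken to be late, 46 had both members tested. In 17 of them the early member was higher and the late member lower. In 9 both were higher, in 10 both were lower, 10 had at least 1 member not called, and 0 had the early member lower with the late member higher. The early member's share of the pair's summed FPKM was higher in both E18 libraries than in both control libraries for 36 of 46 pairs and lower for 8. These pairs were chosen from known biology and with earlier results of these data known, which may partly fix the counts. No such share was computed for other pairs, so the counts are a description.

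Among the 17 exchanges, the share of Ezh2 in the summed FPKM of Ezh2 and Ezh1 was 54.0% at E18 and 2.1% in the control. Hdac2 held 80.1% against Hdac11 at E18 and 23.35% in the control, with Hdac2 at 134 and 132 FPKM at E18 and 41.7 and 38.8 FPKM in the control and Hdac11 at 33.9 and 32.1 FPKM at E18 and 129 and 136 FPKM in the control. Eef1a1 held 98.1% against Eef1a2 at E18 and 59.7% in the control. Syt4 against Syt1, synaptotagmins of which Syt1 is the calcium sensor of fast release, went from 57.5% at E18 to 15.5%. Ina, an early intermediate filament of neurons, against Nefh, the heavy neurofilament of mature axons, held 99.57% and 73.65%, with Nefh listed at 4.61 and 5.00 FPKM at E18 and 82.3 and 85.8 FPKM in the control. Rab3b against Rab3a held 28.5% and 2.9%, Dnm2 against the neuronal dynamin Dnm1 25.7% and 2.5%, and Tuba1a/Tuba1b against Tuba4a 99.9% and 89.3%. In Gng2 and Gng3, G protein gamma subunits, Gng2 held 35.7% and 12.45%.

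Several exchanges rested on low values or on the settings. Scn3a, the embryonic sodium channel, held 77.7% against Scn1a at E18 and 24.3% in the control, with Scn3a at 20.5 and 19.5 FPKM at E18 and 15.5 and 11.9 FPKM in the control and Scn1a at 5.54 and 5.9 FPKM at E18 and 42.3 and 42.6 FPKM in the control. Gabra5 held 59.7% against Gabra4 at E18 and 12.1% in the control, with Gabra4 at 2.66 and 2.58 FPKM at E18 and 4.04 and 5.33 FPKM in the control. Slc12a2 (NKCC1), which loads chloride into immature neurons, held 17.38% and 16.62% against Slc12a5 in the E18 libraries and 0.86% and 1.04% in the control, with Slc12a2 at 5.18 and 4.09 FPKM at E18 and 2.29 and 2.77 FPKM in the control. Camk2d against Camk2a held 93.6% and 65.5%, Ldha against Ldhb 78.5% and 51.8%, Chd7 against Chd5 19.5% and 8.4%, and Map1b against Map1a 95.6% and 70.8%. Without the first E18 library the exchanges fell to 11, which leaves out Gabra5, Slc12a2, Scn3a, Camk2d, Ldha and Chd7 with their partners, and the other settings gave 12 to 17. In other pairs both members moved together: Tubb2b and Tubb4a were both higher, yet Tubb2b held 72.6% at E18 and 5.6% in the control.

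**Figure D5:**
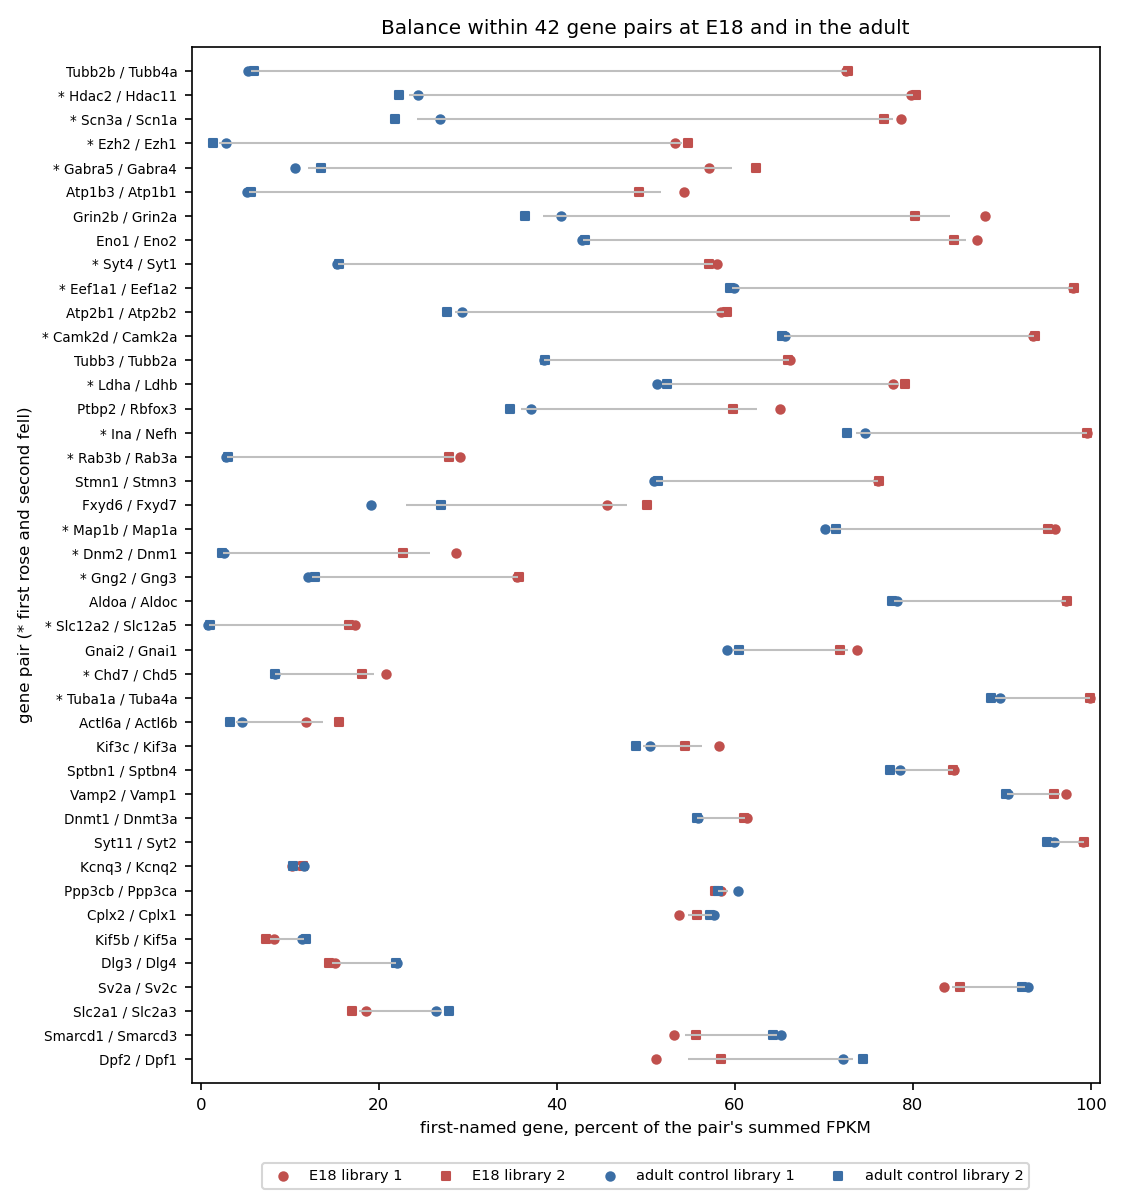
Share of the first-named gene in the summed FPKM of each of 42 of the 46 pairs (horizontal axis, percent), 1 point for each library, red for E18 and blue for adult control. A star marks the 16 plotted pairs whose first gene was higher and second lower at E18. In 33 of the plotted pairs both red points lie to the right of both blue points.

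Energy metabolism separated by pathway. For glycolysis and lactate genes, 6 of 35 tested members were higher at E18 and 25 were lower, with a median of -0.79, and the list held 0.981% and 0.974% of FPKM outside mitochondrially encoded genes at E18 and 2.51% and 2.58% in the control. Aldoa was listed at 328 and 328 FPKM at E18 and 1834 and 1846 FPKM in the control (-2.48 ± 0.030), Eno2, neuronal enolase, at 50.4 and 57.2 FPKM at E18 and 625 and 641 FPKM in the control (-3.53 ± 0.064), and Pkm, pyruvate kinase, at 490.2 and 508 FPKM at E18 and 1073 and 1147 FPKM in the control (-1.15 ± 0.043). Pfkp, a phosphofructokinase, was higher with 201 and 198 FPKM at E18 and 71.1 and 66.8 FPKM in the control. Gapdh was listed at 0.396 and 0 FPKM at E18 and 11.9 and 12.1 FPKM in the control, although every cell uses it in quantity and it has many pseudogenes, so its level cannot be read from the table. Of TCA cycle, malate shuttle and creatine genes 17 of 35 were lower and 10 higher (median -0.26). Got1, of the malate shuttle, was lower (-2.29 ± 0.069), as was the creatine kinase Ckb (-1.59 ± 0.039), whereas Idh1 was higher with 245 and 237 FPKM at E18 and 34.8 and 38.7 FPKM in the control. Nuclear-encoded subunits of oxidative phosphorylation had 23 of 80 higher, 27 lower and a median of -0.020. The 4 rescalings left 15 to 20 higher and 29 to 35 lower, with medians of -0.17 to -0.10, and 15 were higher without the second E18 library. Genes of mitochondrial fusion, fission, transport and import had 14 of 58 higher and 21 lower. Mfn1, a fusion protein, was higher (2.50 ± 0.15), and Pink1, a kinase of mitochondrial quality control, lower with 41.6 and 39.7 FPKM at E18 and 190.1 and 193 FPKM in the control.

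Genes of cholesterol and fatty acid synthesis were mostly higher: 31 of 50 tested members were higher at E18 and 14 were lower, with a median of 0.75. Hmgcs1, which makes the HMG-CoA from which cholesterol is built, was listed at 725 and 724 FPKM at E18 and 149 and 158 FPKM in the control (2.23 ± 0.051). Cyp51, a later enzyme of the pathway, had 100.2 and 92.6 FPKM at E18 and 19.1 and 20.1 FPKM in the control (2.24 ± 0.091), and Fabp5, a fatty acid carrier, 419.7 and 411 FPKM at E18 and 29.1 and 33.5 FPKM in the control (3.69 ± 0.19). The lower members include genes of cholesterol export and removal. Among them are Apoe (-3.42 ± 0.21), also one of the glial markers, Abcg1 (-1.46 ± 0.13) and Cyp46a1 (-2.30 ± 0.24). Cyp46a1 is an enzyme that turns neuronal cholesterol into a form that leaves the brain. The promoter records run from 250 bases before to 50 after the start, and only the 250 bases before it were searched for a sterol regulatory motif. The motif, TCACNCCAC on either strand, was present in 2 of 38 genes of this list, Hmgcs1 and Acsl1, against 102 of 8194 genes (1.24%). Acsl1, which activates long-chain fatty acids, was lower at E18 (-0.62 ± 0.18), a call lost without the first E18 library (-0.61, adjusted p = 0.0861), the second (-0.62, 0.0839) or the first control library (-0.54, 0.0875). The Hmgcs1 stretch is shown because this gene had the highest E18 level of the list among genes with a locus of their own, with the motif in capitals, on GRCm39.
Hmgcs1 (chr13:120151725-120151784, plus strand): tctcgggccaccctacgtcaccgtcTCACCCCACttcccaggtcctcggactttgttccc

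Glycosphingolipid and ganglioside genes differed from these, with 10 of 33 higher and 15 lower. Psap, the precursor of lysosomal sphingolipid activators, was lower with 157 and 152 FPKM at E18 and 406 and 432 FPKM in the control. Among lysosome, V-ATPase and autophagy genes, 16 of 78 tested members were higher at E18 and 44 were lower, with a median of -0.48. The proton pump subunits Atp6v1g2 (-3.39 ± 0.047) and Atp6v1a (-2.01 ± 0.065) and the protease Tpp1 (-2.87 ± 0.10) were lower, as was the autophagy protein Gabarapl1 with 112 and 111 FPKM at E18 and 379 and 383 FPKM in the control. Npc2, which carries cholesterol out of lysosomes, was higher (1.54 ± 0.30). The proteasome leaned neither way, with 15 of 44 higher and 12 lower, and its median of 0.13 changed sign with the scaling. Psme2, a subunit of the immunoproteasome activator, was its highest member (2.64 ± 0.32). Heat shock proteins and cochaperones had 30 of 89 higher and 35 lower. Hspb1 (-3.13 ± 0.16) and Dnajc27 (-3.001 ± 0.076) were lower, and Hsp90ab1 had 811 and 834 FPKM at E18 and 796 and 769 FPKM in the control, which did not pass the threshold.

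Survival and growth signalling was mixed. Apoptosis genes were higher in 18 of 38 cases and lower in 8 (median 0.39). The BH3-only proteins Bbc3 (2.22 ± 0.38) and Hrk (2.07 ± 0.24), which start the mitochondrial death pathway, were higher. The protective genes Faim2 (-5.80 ± 0.086) and Xiap (-1.30 ± 0.085), the latter an inhibitor of caspases, were lower. Neurotrophin, insulin, FGF and cytokine signalling had 16 of 48 higher and 23 lower. Igfbpl1, related to the insulin-like growth factor binding proteins, was listed at 52.4 and 52.1 FPKM at E18 and 1.32 and 0.754 FPKM in the control (4.72 ± 0.20). Cntfr, the receptor of ciliary neurotrophic factor, was listed at 49.1 and 55 FPKM at E18 and 0 and 0 FPKM in the control. That 0 is shared by 6 tested genes of 1 locus, among them Dctn3, all at 0 in both control libraries, so it may be a failed estimate for the locus.

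In the PI3K and mTOR pathway, known for limiting axon regrowth in adult RGCs, 14 of 48 members were higher and 20 lower (median -0.030). Akt1 was higher with 131 and 137 FPKM at E18 and 69 and 76.3 FPKM in the control, as were Tsc2 (1.75 ± 0.12) and Rps6kb2 (2.55 ± 0.18), and the stress-induced mTOR inhibitors Sesn2 (-2.34 ± 0.21) and Sesn3 (-1.63 ± 0.10) and the mTOR partner Rptor (-1.13 ± 0.12) were lower. For MAPK, DLK and JNK signalling 17 of 46 were higher and 17 lower. Nras, a small GTPase, was higher (2.64 ± 0.15), and Map2k1, a kinase that activates ERK, lower (-1.81 ± 0.084). The median of the MAPK list, 0.030, changed sign with the scaling.

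Motors, the initial segment and adhesion were rearranged. Kinesins, dyneins and myosins were higher in 30 of 60 cases and lower in 9 (median 0.46), the latter 14 under 3 of the rescalings. The highest member, Dctn3, was at 0 in both control libraries, which may be a failed estimate for its locus. The dynein intermediate chains exchanged: Dync1i2 had 193 and 194 FPKM at E18 and 22.4 and 25.5 FPKM in the control (2.96 ± 0.086), and Dync1i1, the neuronal form, 1.42 and 1.63 FPKM at E18 and 68.1 and 56.8 FPKM in the control (-4.65 ± 0.13). Kif21b was higher (2.97 ± 0.11) and Kif21a lower (-1.10 ± 0.065). Genes of the axon initial segment, node and neurofilaments had 19 of 55 higher and 28 lower (median -0.27). The highest of them, Epb41, had 52.7 and 53.6 FPKM at E18 and 0 and 0 FPKM in the control, which may also be a failed estimate. Ina was listed at 1143 and 1102 FPKM at E18 and 242 and 228 FPKM in the control (2.25 ± 0.047), and Nefl, the light neurofilament, was nearly level with 684 and 684 FPKM at E18 and 619 and 627 FPKM in the control. Camsap3 (2.44 ± 0.11) and Trim46 (1.56 ± 0.14), microtubule organisers, were higher. Lgi3 (-4.41 ± 0.14) and the axonal potassium channel Kcna1 (-4.03 ± 0.19) were lower. Cadherins and synaptic adhesion genes had 29 of 104 higher and 47 lower. Igsf9 (3.30 ± 0.19) and Chl1 (2.28 ± 0.16), adhesion molecules of growing neurites, were higher, and Igsf8 (-3.17 ± 0.093) and Pcdh20 (-3.69 ± 0.19) lower.

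Subtype genes of RGCs were mostly lower at E18: 11 of 46 tested members were higher at E18 and 29 were lower, with a median of -1.55. Opn4, the melanopsin of light-sensing RGCs, was listed at 3.21 and 1.61 FPKM at E18 and 29.2 and 29.9 FPKM in the control (-3.21 ± 0.24). Penk, the enkephalin precursor, was listed at 0 and 0.996 FPKM at E18 and 63 and 72.6 FPKM in the control, and Cartpt, a neuropeptide of direction-selective RGCs, at 24 and 17.4 FPKM at E18 and 161 and 162 FPKM in the control (-2.92 ± 0.14). Pvalb, the calcium buffer parvalbumin, was listed at 0 and 0.487 FPKM at E18 and 28.2 and 41.3 FPKM in the control. Bhlhe22 (-5.29 ± 0.086) and Prdm8 (-5.05 ± 0.27), regulators that act together, were both lower. The 11 higher members included Irx4, a homeobox factor, with 79 and 78.1 FPKM at E18 and 18.1 and 17.2 FPKM in the control, Zic1 with 35.8 and 32.9 FPKM at E18 and 3.09 and 2.89 FPKM in the control and Foxp2 (1.61 ± 0.20). Of the transporters, Slc18a2 (VMAT2), which loads monoamines into vesicles, was listed at 117 and 116 FPKM at E18 and 5.24 and 4.31 FPKM in the control (4.35 ± 0.12), and Slc6a4, the serotonin transporter that RGCs express transiently during development, at 7.79 and 9.73 FPKM at E18 and 0.595 and 0.596 FPKM in the control (2.61 ± 0.20). Both belong to a list of 171 solute carriers in which 56 were higher and 70 lower.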

How the data were processed

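Poly-A RNA of immunopanned RGCs was sequenced in 6 libraries, 2 for each of E18, adult control and adult miR-1247. The authors deposited FPKM, made with HISAT2, Cufflinks and Cuffdiff on mm39 per the submitters' processing notes (versions and annotation are not given in the sources used here). No counts were used, so the depth of the libraries is unknown and no counting interval is given; summed listed FPKM was 372070 and 373600 at E18 and 366124 and 340008 in the control. The deposited table's own log2 columns, fold changes that the authors computed, were not used. The deposited FPKM carry an offset of 1e-05, which was subtracted. Entries averaging 1 FPKM or more across the 6 libraries were kept, and different rows of 1 gene name were summed (331 genes). Gene names with the same set of loci were joined (385 names in 183 units). Values were tested as log2(FPKM + 1), pseudocount 1, so fold changes of low genes are understated. Linear folds are ratios of mean FPKM.

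The fit used limma 3.58.1 in R 4.3.3, with 3 group means over 6 libraries, a variance trend and Benjamini-Hochberg adjustment, two-sided, at 0.05; the miR-1247 libraries entered the filter and the spread. On simulated data with 9981 genes it called 100 of 100 genes changed 2-fold, 100 of 100 changed 4-fold and 7 of 9781 unchanged ones. The changed genes were few and drawn above a floor on the control level. The noise was normal with a spread smoothed over genes, and failed estimates were not simulated. These rates therefore do not carry over to low genes or to the real comparison. Tables and figures used Python 3.11.15, pandas 2.3.3 and Matplotlib 3.10.9. An exact 0 may be a failed estimate: 45 genes were at 0 in both control libraries and 6 in both E18 libraries. The labels do not name a stranded kit or a stranded count, so overlapping and antisense genes may share reads, and so may near-identical copies such as ribosomal protein pseudogenes, tubulins and calmodulins.

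The gene lists, pairs and members were chosen with earlier results of these data known. Genes named are the 15 called genes with the highest and 15 with the lowest log2 fold change (higher group mean of at least 20 FPKM, above 0 in all 4 libraries), and from each list called members with the 4 highest and 4 lowest fold changes, the 2 most abundant members and the pair genes; others, mostly relatives or partners of these, were chosen after their values were seen. Some genes that this rule selects are not reported here. Alternatives were 4 scalings, a pseudocount of 0.1, the filters, separate rows, no variance trend, the 4 libraries alone, the replicate number as a block, and each library left out.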

Additional observations from a re-analysis of the deposited data

How the results depend on the processing

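No setting moved the number of all genes called by more than 1.5 times: 4012 higher and 2981 lower genes became 3407 and 3423 under median ratio scaling, 3618 and 3105 with equal totals, 3509 and 3359 with quantile normalization, and 3515 and 3359 without mitochondrially encoded genes. With a pseudocount of 0.1 they were 3922 and 2959, and leaving out 1 library gave 3325 to 3940 higher and 2601 to 2913 lower. Of the higher genes 2982 and of the lower 2339 kept their call in every setting other than separate rows; 643 higher and 5 lower genes lost it under at least 1 scaling, and 991 and 638 without at least 1 library. Of 1870 counts of list members under the alternatives, 27 moved by more than 1.5 times. They were of ribosomal proteins, ribosome biogenesis, splicing factors, Zfp genes, ion pumps, oxidative phosphorylation, mitochondrial ribosomal proteins, kinesins, Rab GTPases and microglia markers. Rab GTPases, with 11 higher, had 7 under median ratio scaling and without the second control library. Ribosome biogenesis genes, with 5 lower, had 8 under median ratio scaling and quantile normalization. The 17 pair exchanges ranged from 11 to 17 with 1 library left out, and 11 came without the first E18 library. A change of sign was checked only for list members and the genes with the highest and lowest fold changes. Among these, with rows of 1 name kept separate, 7 genes took the opposite sign: Hnrnpf (-1.03), Map1b (-3.33), Rims1 (-2.37), Spag9 (-2.42), Zfp512 (-2.28), Zfp532 (-1.63) and Zfp983 (1.67). There the row with the larger difference stood for the gene in place of the sum of its rows. With the replicate number as a block 3937 genes were higher and 2916 lower; the numbers did not pair the libraries (correlations of deviations -0.003 between E18 and control, -0.016 between control and miR-1247 and 0.000 between E18 and miR-1247). With 2 libraries in each group and no counts, spread is estimated from few values and the depth behind low FPKM is unknown.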

Other observations

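Several values stood apart between the libraries of a group. Rian, a noncoding RNA of the imprinted Meg3 region, was listed at 467 and 512 FPKM at E18 and 2349 and 82.5 FPKM in the control, while its neighbour Meg3 had 502 and 502 FPKM at E18 and 50.3 and 48 FPKM in the control. Glul, the glutamine synthetase of glia, had 80.1 and 84.7 FPKM at E18 and 463 and 122 FPKM in the control, Rab11a, a recycling endosome GTPase, had 133 and 750.4 FPKM at E18 and 58.9 and 69.1 FPKM in the control, and the proteasome subunit Psmb5 had 391 and 88 FPKM at E18 and 90.3 and 79.7 FPKM in the control. Their causes were not tested.

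Imprinted genes divided strongly around a median of 0.060, whose sign changed with the scaling. Of 34 tested, 11 were higher and 13 lower at E18. Nnat and Meg3 (3.33 ± 0.054) led the higher genes. Impact, a regulator of translation in neurons, was listed at 10.5 and 9.17 FPKM at E18 and 155 and 157 FPKM in the control (-3.86 ± 0.078), the nucleosome assembly protein Nap1l5 at 51.2 and 52.9 FPKM at E18 and 647 and 692 FPKM in the control (-3.66 ± 0.049), and Grb10, an adaptor that restrains growth factor signals, at 2.25 and 3.43 FPKM at E18 and 35.3 and 36.7 FPKM in the control (-3.29 ± 0.16).

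Iron and redox genes divided as well. Ftl1, the ferritin light chain, was higher with 615 and 628 FPKM at E18 and 353 and 336 FPKM in the control, and Fth1, the heavy chain, lower with 255 and 241 FPKM at E18 and 521 and 483 FPKM in the control. Prdx2, a peroxiredoxin, had 343 and 350.1 FPKM at E18 and 103 and 94.6 FPKM in the control (1.80 ± 0.058), and Srxn1, which repairs peroxiredoxins, 6.25 and 6.58 FPKM at E18 and 99.9 and 103 FPKM in the control (-3.79 ± 0.080). The purine salvage enzyme Hprt, often used as a reference gene, was listed at 28.3 and 25.6 FPKM at E18 and 143 and 148 FPKM in the control (-2.39 ± 0.070), and beta-actin (Actb) at 871 and 899 FPKM at E18 and 386 and 373 FPKM in the control (1.22 ± 0.038), so neither was level across the ages. Hprt and Actb were chosen after their values were seen.

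The motif CCGGAAGT on either strand, the core bound by ETS factors, was searched in the 250 bases before the start in the promoter records. It was present in 599 of 8194 genes (7.31%), in 123 of 1679 genes at least 2-fold higher at E18 (7.33%) and in 37 of 1152 at least 2-fold lower (3.21%). The difference was not tested.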
